A study of Mus musculus with 9 samples.

Results

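Expression of 8 liver transcription factors was examined in the RNA-seq libraries of Hepa1-6 cells, a mouse hepatoma line, after treatment with the pleuromutilin antibiotics lefamulin and tiamulin. The genes were Hnf4a, Foxa1, Foxa2, Foxa3, Cebpa, Cebpb, Onecut1 and Nr1h4, taken by symbol as protein-coding genes from the 56748 genes of the count table. All 8 were among the 14510 genes that had enough counts to be tested. The 3 groups were untreated control cells, cells given 37 µg/mL lefamulin for 2 days and cells given 37 µg/mL tiamulin for 2 days, with 3 libraries in each. The paper's methods call the control vehicle-treated. The labels number the libraries of a group but do not say that they came from separate cultures, so the p values measure the spread between these libraries, which may be technical. Both drug comparisons used the same 3 control libraries, and both drugs were given at the same mass concentration.

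These factors form a network that builds and maintains the hepatocyte. HNF4A is the nuclear receptor at its centre, the FOXA proteins are forkhead pioneer factors that open liver enhancers, C/EBPα and C/EBPβ are leucine zipper factors of metabolic and acute phase genes, ONECUT1 (also called HNF6) is a cut-homeodomain factor of liver and bile duct development, and FXR, the product of Nr1h4, is the bile acid receptor. They bind next to each other and regulate each other's genes, and in liver tumors C/EBPα and HNF4A are known for restraining growth and keeping cells differentiated.

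The 9 libraries held between 15568887 and 18008105 counts. Of the 14 hepatocyte markers found in the table, 8 had an FPKM over 1 in every control library (Alb, Afp, Rbp4, Krt8, Krt18, Fgb, Apob and Apoa2), while Ttr, Apoa1, Apoh, Serpina1b, Fga and Ahsg had at most 8 counts in any library, so the label of a liver cell was met in part. Of 11 leukocyte markers, 8 were at 0 counts in all 9 libraries, among them Adgre1, Cd3e and Cd8a. The summed FPKM of 7 bile duct markers, most of it from Spp1, was 341 to 352 in controls, 287 to 293 under lefamulin and 268 to 284 under tiamulin, and its part in the changes below was not tested. That of the hepatocyte markers was 1982 to 2097, 1845 to 1968 and 2013 to 2297. Its largest member was the keratin Krt18, at a mean FPKM of 763 in controls and 989 under tiamulin. Of the 8 hepatocyte markers tested, tiamulin lowered 4 (Alb, Afp, Apob and Fgb) and raised Krt18, with a median log2(fold change) of -0.40. Lefamulin lowered 1 (Alb), with a median of -0.11. Over all tested genes, tiamulin lowered 7.34% and raised 9.08%, and lefamulin lowered 6.00%. The leukocyte markers summed to 6.65 to 7.47, 8.18 to 12.6 and 11.5 to 15.9, nearly all of it Cd68, a lysosomal protein, and 12 stromal and endothelial markers to 2.79 to 3.30, 2.48 to 2.53 and 3.20 to 3.60. Their part was not tested either. In these bulk libraries, fewer cells that express a gene and less RNA of it per cell cannot be told apart. Libraries differed within groups in a way that followed the GC content of genes, as described further down.

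The 250 bases before the RefSeq transcription start are shown for Cebpa and Onecut1, which fell under both drugs, and for Cebpb, the paralogue of Cebpa, for which neither drug comparison passed. They come from RefSeq, assembly GRCm38.p6, and all 3 are on the plus strand, at chr7:35119043-35119292 (Cebpa), chr9:74861671-74861920 (Onecut1) and chr2:167688665-167688914 (Cebpb). Capitals mark a TATA box (TATAAA), an E-box (CACGTG) and the core of the cAMP response element (TGACG), each on either strand.
Cebpa: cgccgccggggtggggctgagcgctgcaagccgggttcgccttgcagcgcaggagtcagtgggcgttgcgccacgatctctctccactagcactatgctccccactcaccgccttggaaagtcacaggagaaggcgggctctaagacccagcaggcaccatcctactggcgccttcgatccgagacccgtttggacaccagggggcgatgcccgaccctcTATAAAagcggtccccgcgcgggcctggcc
Onecut1: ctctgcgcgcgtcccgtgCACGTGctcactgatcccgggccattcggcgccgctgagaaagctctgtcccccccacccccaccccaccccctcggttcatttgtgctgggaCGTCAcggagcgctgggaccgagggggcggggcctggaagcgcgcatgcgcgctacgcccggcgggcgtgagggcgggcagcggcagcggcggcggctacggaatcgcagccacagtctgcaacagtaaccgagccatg
Cebpb: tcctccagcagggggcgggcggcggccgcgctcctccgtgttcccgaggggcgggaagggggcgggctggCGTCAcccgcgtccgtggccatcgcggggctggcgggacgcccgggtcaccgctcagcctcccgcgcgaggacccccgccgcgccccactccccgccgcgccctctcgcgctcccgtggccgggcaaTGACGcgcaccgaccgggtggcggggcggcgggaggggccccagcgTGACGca

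The sequences of Cebpa and Onecut1 shared none of the 3 capitalised motifs. Cebpa has a TATAAA from -30 to -25, a motif that 12.4% of the 32851 RefSeq promoters of this length hold. Onecut1 has a CACGTG from -232 to -227, held by 6.02% of promoters, and a TGACG on the minus strand from -139 to -135, held by 17.8%. Cebpb has 3 TGACG matches. GC content was 66.4% for Cebpa, 71.6% for Onecut1 and 81.6% for Cebpb, against a median of 52.4% over all promoters, and 44.4% for Nr1h4. Among the 11 promoter entries of the 8 genes, none held the C/EBP motif TTGCNNAA (9.56% of all promoters), the HNF4 motif CAAAGTCCA (0.384%), the forkhead motif TGTTTGC (4.30%) or TGATGNAA (3.45%). The ONECUT motif ATTGATT was found in an entry of Hnf4a and in an entry of Foxa2 (2.62% of all promoters), and the forkhead motif TGTTTAC in that of Foxa1 (3.17%). CCAAT was found in 5 entries (33.9% of all promoters) and GGGCGG, which is left in lower case here, in 7 (32.7%). The motifs were searched as exact letters on both strands, and the CCAAT and ATTGATT windows do not overlap in any entry.

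In the control cells the 8 genes covered a wide range of levels, compared per transcript length as deposited FPKM. Hnf4a was highest, at 75.2 ± 1.72 FPKM (SD, n = 3). It ranked 12 among the 1525 genes that the deposited table labels with a transcription factor family. Cebpb followed at 55.7 ± 18.4, Foxa2 at 27.6 ± 2.09, Foxa3 at 20.5 ± 2.90 and Cebpa at 13.4 ± 2.35. Nr1h4 (4.90 ± 0.637), Onecut1 (3.68 ± 0.0838) and Foxa1 (1.95 ± 0.140) were the 3 lowest. No neighbours in this order overlapped in their control libraries. Among the FOXA genes, Foxa2 stood at 14.3 ± 2.14 times the FPKM of Foxa1 and at 1.36 ± 0.142 times that of Foxa3. In lefamulin-treated cells Onecut1, at 1.92 ± 0.0732 FPKM, was below Foxa1, at 2.10 ± 0.103, and the libraries did not overlap. In tiamulin-treated cells Onecut1 (2.31 ± 0.232) overlapped Foxa1 (2.28 ± 0.292), and Cebpb (59.3 ± 16.3) overlapped Hnf4a (72.6 ± 6.46).

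**Figure D1:**
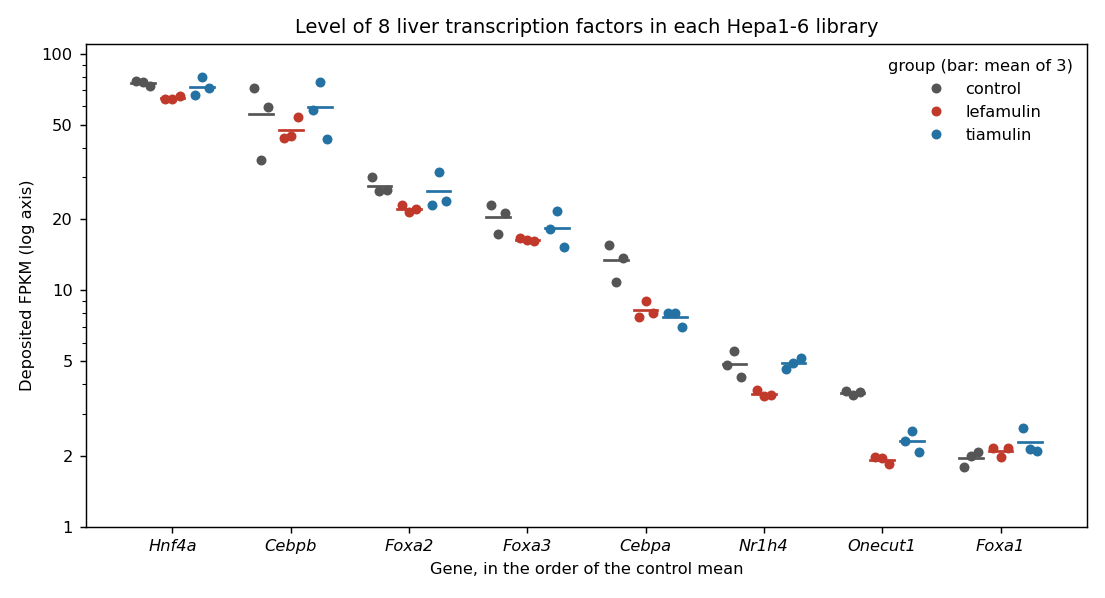
Deposited FPKM of the 8 genes on a log axis, with a point for each library and a bar for the mean of the 3 libraries of each group (control, lefamulin, tiamulin). Hnf4a is highest in each group by its mean, Cebpa and Onecut1 sit below the control libraries under both drugs, and Cebpb spreads from 35.7 to 71.9 within the controls.

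Lefamulin lowered 4 of the 8 genes and raised none, with the adjusted p below 0.05: Onecut1, Cebpa, Nr1h4 and Hnf4a. Over all 14510 tested genes, 6.00% were lower and 7.09% higher by the same rule. Tiamulin lowered 2 of the 8, Cebpa and Onecut1, and raised none, while 7.34% of all tested genes were lower and 9.08% higher. None of the 8 was a DEG by the study's thresholds, which ask in addition that the log2(fold change) lie beyond 1 in either direction and which 1.51% of all genes passed under lefamulin and 1.78% under tiamulin. The median log2(fold change) of the 8 genes was -0.32 under lefamulin and -0.06 under tiamulin, with -0.00 and 0.00 over all tested genes. Among the 893 tested genes with a transcription factor family label, lefamulin lowered 85 (9.52%) and raised 50 (5.60%). Tiamulin lowered 54 of them (6.05%) and raised 79 (8.85%). All p values of these comparisons were from the quasi-likelihood test of edgeR on counts, adjusted over all tested genes, and levels are given as CPM, the count scaled to library size after TMM normalization.

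**Figure D2:**
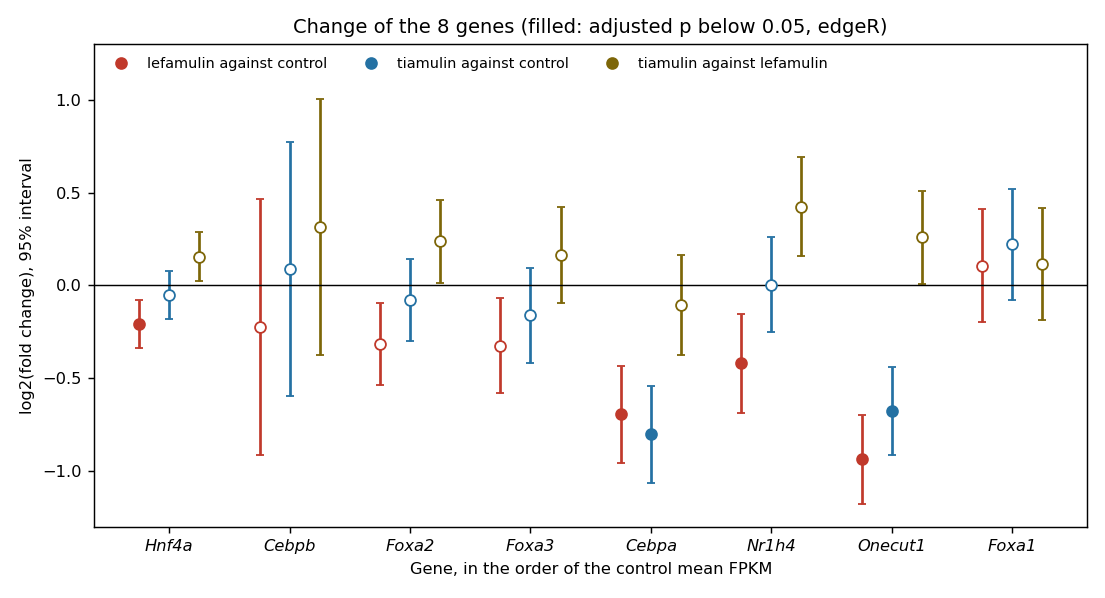
Fitted log2(fold change) of each gene with its 95% interval for lefamulin against control, tiamulin against control and tiamulin against lefamulin, with filled points where the adjusted p is below 0.05. Onecut1 and Cebpa are filled for both drugs, Hnf4a and Nr1h4 for lefamulin, and no point is filled for tiamulin against lefamulin.

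Hnf4a, whose product drives apolipoprotein, coagulation and drug metabolism genes of the liver, was slightly lower under lefamulin. Its counts were 6437, 6310 and 6376 in controls 1 to 3, 4905, 5201 and 5256 in lefamulin 1 to 3, and 5348, 6147 and 5902 in tiamulin 1 to 3. After scaling these were 365 ± 8.01 CPM in controls, 316 ± 5.04 under lefamulin and 352 ± 29.6 under tiamulin (SD, n = 3). All lefamulin libraries lay below all controls, and tiamulin libraries lay on both sides of the controls. Under lefamulin Hnf4a was at 86.7% of the control mean and the fitted log2(fold change) was -0.21 (SE 0.06, adjusted p = 0.0374). That call was lost when any single library of these 2 groups was left out, at log2(fold change) values between -0.23 and -0.19 and an adjusted p from 0.0852 to 0.134. Under tiamulin the log2(fold change) was -0.05 (95% interval -0.18 to 0.08, adjusted p = 0.627). Without tiamulin 2, which had the highest Hnf4a of all 9 libraries, it was -0.12 (adjusted p = 0.0466).

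The 3 FOXA genes encode forkhead factors that prepare liver enhancers for other factors and overlap in function, and none passed the test under either drug. Foxa2 had 1238, 1076 and 1131 counts in controls 1 to 3, 858, 852 and 855 in lefamulin 1 to 3, and 903, 1202 and 966 in tiamulin 1 to 3. The lefamulin libraries were all below the controls after scaling, at 52.9 ± 1.79 against 65.8 ± 4.96 CPM, and the fitted log2(fold change) was -0.32 (SE 0.10, adjusted p = 0.0605). Foxa3, a factor of the adult liver and of glucose metabolism, had 815, 609 and 778 counts in the controls, 532, 555 and 541 in lefamulin 1 to 3, and 616, 703 and 532 in tiamulin 1 to 3. Its lefamulin libraries, at 33.5 ± 0.426 CPM, also lay below all controls, at 42.0 ± 5.94 CPM, and the log2(fold change) was -0.32 (SE 0.12, adjusted p = 0.0916). Both genes missed the threshold under lefamulin but passed it when tiamulin 2 was left out of the shared fit, with an adjusted p of 0.000383 for Foxa2 and 0.00961 for Foxa3, in a fit that called 24.9% of all tested genes under lefamulin against 13.1% with all libraries. Foxa2 also passed without tiamulin 1 (0.0494), and Foxa3 without control 2 (0.0396), where its log2(fold change) was -0.43. DESeq2 called Foxa2 (adjusted p = 0.0443) but not Foxa3 (0.0781) under lefamulin, and called 14.0% of the genes it tested. In edgeR with these 2 groups alone, Foxa2 and Foxa3 passed at 0.000886 and 0.00822, with 24.8% of genes called. With no filter they passed at 0.00371 and 0.0112, with 7.21% called.

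Under tiamulin the values of Foxa2 and Foxa3 overlapped the controls. The log2(fold change) was -0.08 for Foxa2 (95% interval -0.30 to 0.14, adjusted p = 0.669) and -0.16 for Foxa3 (95% interval -0.42 to 0.09, adjusted p = 0.401). Tiamulin 2 had the highest Foxa2 and Foxa3 of its group. Without it the log2(fold change) was -0.23 for Foxa2 (adjusted p = 0.0145) and -0.29 for Foxa3 (adjusted p = 0.0397). Foxa1, the lowest of the 8, went the other way in its fitted value. It had 104, 114 and 124 counts in controls 1 to 3, 113, 110 and 118 in lefamulin 1 to 3 and 144, 113 and 119 in tiamulin 1 to 3. The tiamulin libraries lay above all controls after scaling by a small margin and the lefamulin libraries overlapped them. No change was detectable at this depth, with log2(fold change) values of 0.11 for lefamulin (95% interval -0.20 to 0.41, adjusted p = 0.680) and 0.22 for tiamulin (95% interval -0.08 to 0.52, adjusted p = 0.317).

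Of the pair of C/EBP genes, Cebpa, whose product drives hepatocyte metabolic genes and slows proliferation, fell under both drugs. It had 713, 495 and 652 counts in controls 1 to 3, 319, 398 and 348 in lefamulin 1 to 3, and 351, 338 and 316 in tiamulin 1 to 3. No treated library reached the lowest control, and the drug groups overlapped each other. The mean was 35.5 ± 6.23 CPM in controls, against 21.9 ± 1.86 with lefamulin and 20.4 ± 1.53 under tiamulin. This was 61.8% of control under lefamulin (log2(fold change) -0.70, SE 0.12, adjusted p = 0.00166) and 57.4% under tiamulin (log2(fold change) -0.80, SE 0.12, adjusted p = 0.000435). Cebpa passed under all 20 alternatives tried for each drug. Its log2(fold change) ran from -0.82 to -0.58 for lefamulin and from -0.96 to -0.68 for tiamulin.

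Cebpb encodes the C/EBP of the acute phase and stress responses. It had 1882, 926 and 1608 counts in controls 1 to 3, 1048, 1126 and 1329 in lefamulin 1 to 3, and 1441, 1836 and 1126 in tiamulin 1 to 3. All 3 groups overlapped, and control 1 and control 2 differed more from each other than any pair of group means. The coefficient of variation of its CPM was 33.1% in controls and 27.1% under tiamulin, against 2.31% and 9.66% for Onecut1. The log2(fold change) was -0.22 under lefamulin (95% interval -0.91 to 0.47, adjusted p = 0.687) and 0.09 under tiamulin (95% interval -0.60 to 0.77, adjusted p = 0.879). The sign of the lefamulin value turned without control 1 (0.00) and that of the tiamulin value without control 2 (-0.15) or tiamulin 2 (-0.13). The lefamulin interval includes a fall as large as that of Cebpa and the tiamulin interval does not, and these libraries do not show whether Cebpb changed.

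Within each library, Cebpb was 3.28 to 4.63 times Cebpa in controls, 4.96 to 6.69 times under lefamulin and 6.25 to 9.52 times under tiamulin, as a ratio of FPKM. The treated libraries did not overlap the controls, and the drugs overlapped each other. The means were 4.08 ± 0.707, 5.80 ± 0.868 and 7.65 ± 1.68 (SD, n = 3). An exact two-sided permutation test gave p = 0.1 for each drug against control (adjusted p = 0.15 over 3 comparisons), the smallest p that 3 against 3 libraries allow, and p = 0.2 for tiamulin against lefamulin.

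**Figure D3:**
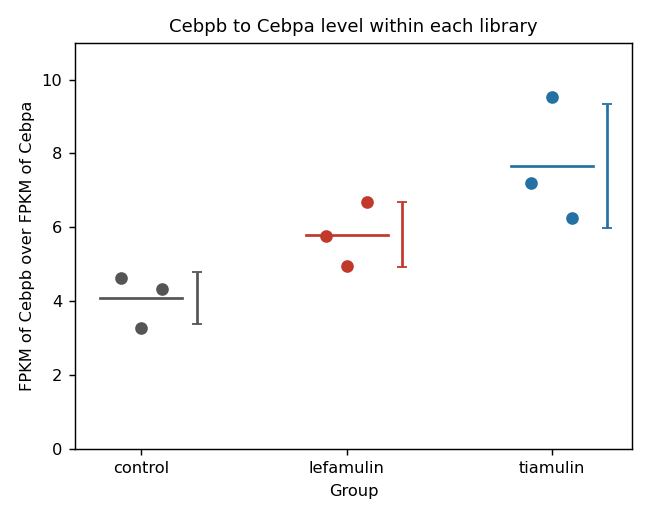
FPKM of Cebpb divided by FPKM of Cebpa in each library, by group, with a bar for the mean and a vertical line for 1 SD on each side. The control libraries lie between 3.28 and 4.63, and all treated libraries lie above them.

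Onecut1, a regulator of hepatocyte maturation and of glucose metabolism, showed the largest fall of the 8 genes under lefamulin. It had 269, 255 and 274 counts in controls 1 to 3, 128, 134 and 124 in lefamulin 1 to 3, and 157, 167 and 146 in tiamulin 1 to 3. The 3 groups did not overlap after scaling, with 15.2 ± 0.352 CPM in controls, 7.95 ± 0.309 under lefamulin and 9.53 ± 0.920 under tiamulin. Onecut1 was thus at 52.2% of control under lefamulin (log2(fold change) -0.94, SE 0.11, adjusted p = 8.23e-05) and at 62.5% under tiamulin (log2(fold change) -0.68, SE 0.11, adjusted p = 0.000741). It passed under all 20 alternatives for each drug, and the values ran from -0.96 to -0.68 for lefamulin and from -0.77 to -0.50 for tiamulin.

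Nr1h4 encodes FXR, which senses bile acids and limits their synthesis as a partner of RXR. It had 194, 221 and 178 counts in controls 1 to 3, 138, 137 and 136 in lefamulin 1 to 3, and 177, 182 and 203 in tiamulin 1 to 3. After scaling, all lefamulin libraries were below all others and the tiamulin libraries lay within the range of the controls. Nr1h4 stood at 11.3 ± 1.46 CPM in controls, 8.47 ± 0.305 under lefamulin and 11.4 ± 0.590 under tiamulin. It fell under lefamulin (log2(fold change) -0.42, SE 0.12, adjusted p = 0.0388), a call that was lost without control 1, control 2 or any lefamulin library, at log2(fold change) values between -0.45 and -0.32 and an adjusted p from 0.0801 to 0.150. DESeq2 gave it an adjusted p of 0.0526. Under tiamulin the log2(fold change) was 0.00 (95% interval -0.25 to 0.26, adjusted p = 0.987). Of the RXR partners of FXR, Rxrb, named after its values were seen, fell under lefamulin (-0.42, adjusted p = 0.00965), a call lost without control 3 or lefamulin 3 (adjusted p up to 0.0591), and did not pass under tiamulin (0.00, adjusted p = 0.994). Rxra did not pass under either drug, with log2(fold change) values of -0.17 (adjusted p = 0.337) and -0.07 (adjusted p = 0.702). Without tiamulin 2, however, Rxra passed under tiamulin at -0.23 (adjusted p = 0.0281), and without control 2 and tiamulin 2 it passed under lefamulin at -0.21 (adjusted p = 0.0278) and under tiamulin at -0.27 (adjusted p = 0.00986).

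Lefamulin and tiamulin, which share the pleuromutilin core and differ in the side chain, were also compared with each other at the same concentration and time. None of the 8 genes passed, over a background of 2.85% of tested genes higher and 2.05% lower under tiamulin, with 0.227% DEGs. DESeq2 also called 0 of them, against 8.82% of the genes it tested, and 4 had an unadjusted p under 0.05, against 21.6% of all tested genes. The largest difference was in Nr1h4, which was higher under tiamulin by 0.42 on the log2 scale (95% interval 0.16 to 0.69, adjusted p = 0.0656) with no overlap between libraries. Offsets for GC content and gene length took that value to 0.49 with an adjusted p of 0.00892, and it also passed with those offsets and the block (adjusted p = 0.0157) and without control 2 and tiamulin 2 (adjusted p = 0.0425). Foxa2 passed with the offsets at 0.20 (adjusted p = 0.0477), in a fit that called 13.2% of all genes. Hnf4a was higher under tiamulin by 0.16 (95% interval 0.03 to 0.28, adjusted p = 0.154) and Foxa2 by 0.24 (95% interval 0.01 to 0.46, adjusted p = 0.204). Onecut1 was higher by 0.26 (95% interval 0.01 to 0.51, adjusted p = 0.214), and the libraries of each of these genes did not overlap. The share of all tested genes without overlap was not computed, here or against control, so such separation is only a description. For Cebpa the difference was -0.11 (95% interval -0.37 to 0.16, adjusted p = 0.667). The 95% intervals of Foxa3 (-0.10 to 0.42), Foxa1 (-0.18 to 0.41) and Cebpb (-0.38 to 1.00) also included no difference. With all 9 libraries and no offsets, a difference between the drugs was thus not shown for these genes, that of Nr1h4 and Foxa2 depended on the processing, and none of the intervals shows that the drugs act alike.

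Libraries of a group differed with the GC content of genes, and the part of this in the results was not tested. The longest transcript of Cebpb had a GC content of 67.2%, above 99.9% of tested genes, and that of Cebpa 62.6%, above 99.0%, whereas Nr1h4 (47.2%) and Onecut1 (49.7%) had the lowest values of the 8 genes. Each library's departure from the mean of its group was set against GC content over 10313 genes. Spearman's rho was 0.49 for control 1 and -0.49 for control 2, and 0.69 for tiamulin 2 against -0.53 for tiamulin 1 and -0.58 for tiamulin 3. In control 3 and in the lefamulin libraries rho was between -0.14 and 0.18. These genes share a library, so the values are a description. On the log2 scale Cebpb departed by 0.43 and -0.58 in controls 1 and 2 and by 0.39 and -0.40 in tiamulin 2 and 3. Cebpa departed by 0.23 and -0.28 in controls 1 and 2, and by 0.13 or less in size in the other libraries. When GC content and gene length entered as offsets, Cebpa stood at -0.62 under lefamulin and -0.82 under tiamulin (adjusted p = 1.92e-05 and 2.78e-07), Cebpb at -0.08 and 0.12, and Onecut1 at -0.96 and -0.70. In that fit 6 of the 8 genes passed under lefamulin, where Hnf4a (adjusted p = 0.000276) and Nr1h4 (0.00853) kept their calls and Foxa2 (0.000912) and Foxa3 (0.0139) gained them, and 3 passed under tiamulin, where Hnf4a was gained at -0.10 (adjusted p = 0.0486). Hnf4a lost that tiamulin call when a block for the replicate number was added to the offsets (adjusted p = 0.0717). Over all genes the offsets alone called 23.9% under lefamulin and 26.8% under tiamulin. Without control 2 and tiamulin 2, a choice made after seeing the data, 5 of the 8 genes passed under lefamulin (Onecut1, Cebpa, Foxa2, Foxa3 and Hnf4a) and 4 under tiamulin (Onecut1, Cebpa, Foxa2 and Foxa3), all lower. In that fit 26.1% of 14777 tested genes passed under lefamulin and 25.1% under tiamulin, against 13.1% and 16.4% of 14510 with all 9 libraries.

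**Figure D4:**
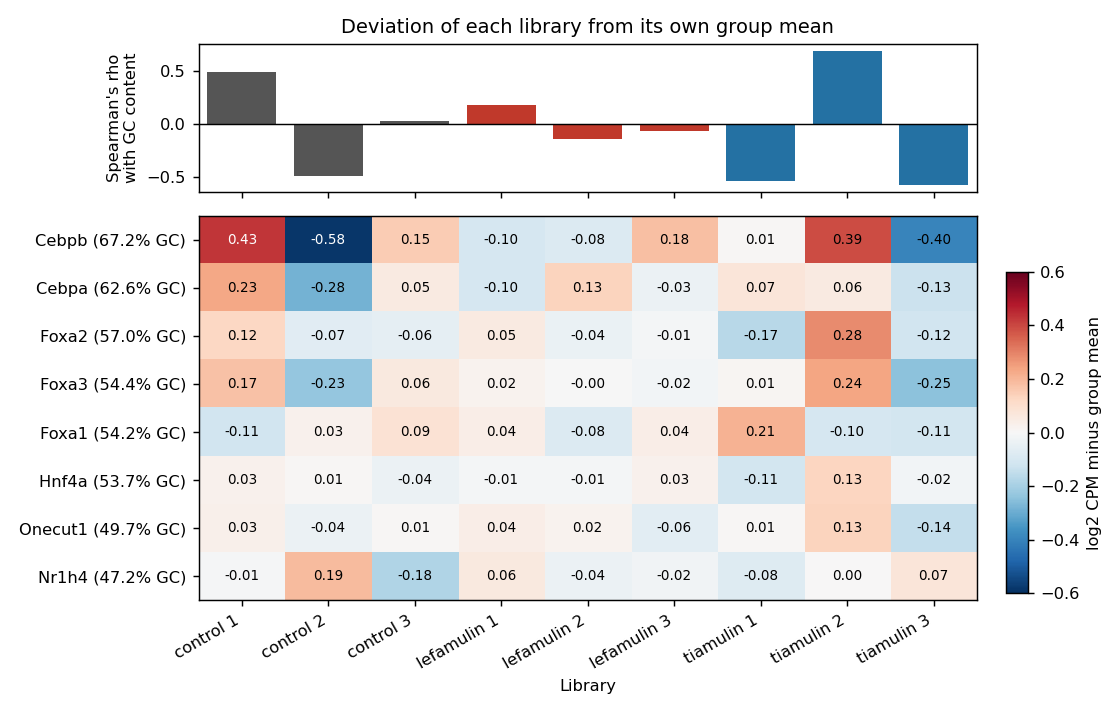
Upper panel, Spearman's rho across genes between the GC content of a gene and its deviation from the group mean in each library. Lower panel, the same deviation in log2 CPM for each of the 8 genes, ordered by GC content. Cebpb shows the widest range, from -0.58 in control 2 to 0.43 in control 1, and Onecut1 stays between -0.14 and 0.13.

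Genes that overlap these loci had few counts, except at Cebpb. Peds1, on the strand opposite Cebpb and overlapping its deposited span, had 584 to 677 counts in every library. Hnf4aos, antisense to Hnf4a, had 4 to 11 counts, and Gm45091, antisense to Cebpa, had 0 to 7. Gm25881 within Hnf4a had 0 to 2, and Gm20649 within Onecut1 had 0. The strand setting of the counting is not given in the sources used here, so reads of such pairs cannot be told apart, which matters for Cebpb. The deposited spans were chromosome 7, 34818718 to 34821353 for Cebpa and chromosome 9, 74769203 to 74799063 for Onecut1, in the build of the authors' files. That build is listed as mm10 in the processing notes, but none of the 8 deposited spans equals that of the gene in GRCm38, so these positions are not comparable with those of the promoters above.

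Of 42 other transcription factors and nuclear receptors of the liver, 36 were tested. Under lefamulin 5 fell and 2 rose, and under tiamulin 6 fell and 9 rose, with a median log2(fold change) of -0.08 and 0.14. Of all tested genes, 6.00% fell and 7.09% rose under lefamulin, and 7.34% fell and 9.08% rose under tiamulin. Nr5a2 (LRH-1, a nuclear receptor of bile acid and cholesterol genes) fell under both drugs, by 0.57 (adjusted p = 0.000148) and 0.77 (adjusted p = 8.70e-06) on the log2 scale. Both drugs also lowered Foxq1, a forkhead factor, Zbtb20, a repressor of Afp, and Tbx3, a T-box factor of hepatoblasts. Under lefamulin they stood at -0.55, -0.50 and -0.44 (adjusted p = 0.00193, 0.00169 and 0.00365), and under tiamulin at -0.44, -0.35 and -0.50 (adjusted p = 0.00666, 0.0139 and 0.000948). The lefamulin calls of Foxq1, Zbtb20 and Tbx3 held when any library was left out. Their tiamulin calls were not checked in this way. Tiamulin raised Rora, a nuclear receptor of the circadian clock and lipid metabolism (0.60, adjusted p = 0.000340), Onecut2, the paralogue of Onecut1 (0.57, adjusted p = 0.000558), and Nfil3, a circadian repressor (0.51, adjusted p = 0.0157). Nfil3 lost its call without control 2 or control 3 (adjusted p up to 0.0754). The mean of Onecut2 was 186 CPM in controls, 225 under lefamulin and 276 under tiamulin. Its lefamulin value was 0.27 and did not pass (adjusted p = 0.0578). The number of these 36 genes that passed was 4 without control 3 and 19 without tiamulin 2 under lefamulin, and 7 without control 2 or control 3 and 18 without tiamulin 2 under tiamulin. The share of all tested genes that passed moved too. Under lefamulin it was 6.69% without control 3, 6.71% without lefamulin 2, 7.62% without lefamulin 3 and 24.9% without tiamulin 2. Under tiamulin it was 11.1% without control 2, 9.85% without control 3 and 23.1% without tiamulin 2. Without control 1, 1777 of 14844 genes passed under tiamulin. For tiamulin against lefamulin the share ran from 1.37% to 8.79% when a library was left out, against 4.90% with all 9. The list counts given below for left-out libraries come from these fits. Between the drugs, 4 of the 36 genes were higher and 1 lower under tiamulin, among them Rora (0.48), Rxrb (0.42) and Zhx2 (0.34). Of all tested genes, 2.85% were higher and 2.05% lower in that comparison. Rora kept its call in each of the 9 fits that left out a library. Rxrb lost it without any lefamulin library (adjusted p up to 0.113) and Zhx2 without control 3 or any lefamulin library (up to 0.118).

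**Figure D5:**
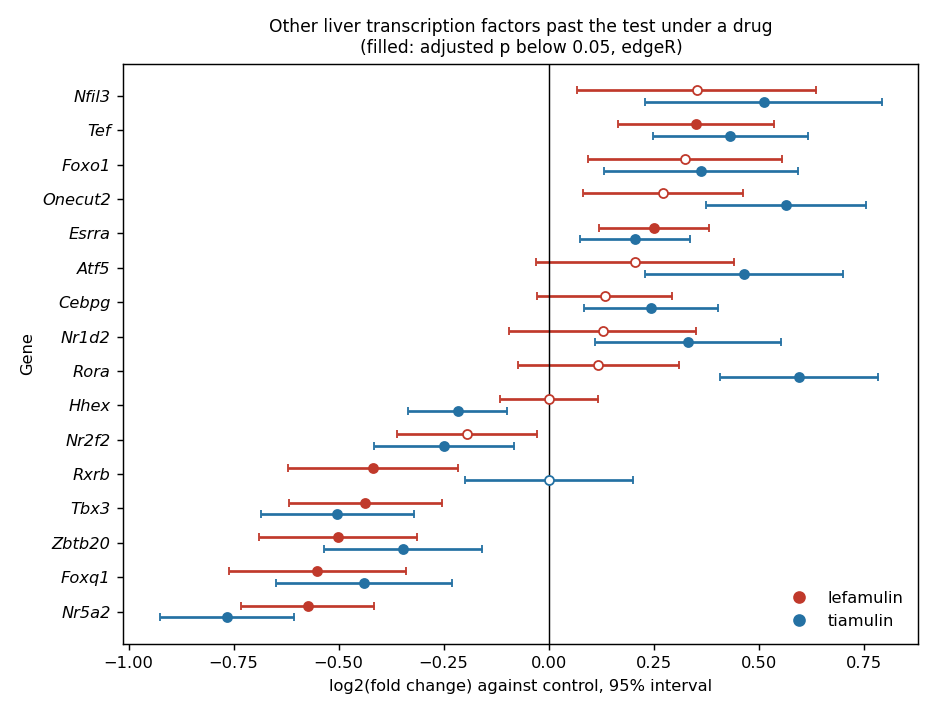
Log2(fold change) against control with 95% intervals for the 16 other liver transcription factors that passed under at least 1 drug, with filled points where the adjusted p is below 0.05. Nr5a2, Foxq1, Zbtb20 and Tbx3 are filled and below 0 for both drugs, and Onecut2 and Rora are filled and above 0 for tiamulin.

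Among 27 dimer partners and co-regulators of the 8 factors, 26 were tested. Lefamulin raised 4 of these and lowered 5, and tiamulin raised 6 and lowered 5, with a median of -0.03 and -0.00. The shares over all tested genes were 7.09% raised and 6.00% lowered by lefamulin, and 9.08% raised and 7.34% lowered by tiamulin. Ddit3 (CHOP), a stress-induced C/EBP relative that dimerises with C/EBPα and C/EBPβ, rose from 533 to 575 counts in controls to 1284 to 1410 under lefamulin (adjusted p = 2.50e-08) and to 1180 to 1272 under tiamulin (adjusted p = 7.94e-08). Trib3, a pseudokinase of the same stress response, rose by 1.16 and 1.34, and Ppargc1a (PGC-1α), a coactivator of HNF4A, by 0.53 and 0.45. Tle2, a Groucho corepressor, fell by 0.62 and 0.61. Tle2 lost its call under lefamulin without control 1, control 3, lefamulin 2 or lefamulin 3 (adjusted p up to 0.0877) and under tiamulin without control 1, control 3, tiamulin 1 or tiamulin 3 (up to 0.0643). Between the drugs Rxrb (0.42) and Crebbp (0.25) were higher and Prmt1 (-0.31) lower under tiamulin, all 3 of which lost their call without any lefamulin library. Prmt1 also lost it without control 3 (adjusted p up to 0.121), and Crebbp without control 2, control 3 or tiamulin 1 (up to 0.136). Of the 26 genes, 4 passed without control 3 and 13 without tiamulin 2 under lefamulin, and 7 without control 1 under tiamulin.

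Genes taken as targets of these factors were followed as lists, and whether each listed gene is a target in these cells was not tested. Of 40 HNF4A targets, 9 had enough counts to be tested. Under lefamulin 0 of the 9 passed by edgeR and 0 by DESeq2, against 13.1% and 14.0% of all genes tested, and 0 had an unadjusted p under 0.05, against 27.2%. Nothing is read from these counts over 9 genes, and 1 of them passed without tiamulin 2, where 24.9% of all genes did. Apob, the apolipoprotein of VLDL, fell under tiamulin (-0.39, adjusted p = 0.00256) and was lower than under lefamulin (-0.37), a call lost without lefamulin 2 or lefamulin 3 (adjusted p up to 0.0965). Of 20 FOXA targets 12 were tested, a list that holds Hnf4a. Lefamulin lowered 3 of them, Alb (-0.24), Hnf4a (-0.21) and Igfbp1 (-0.19), of which none passed without control 3, lefamulin 2 or lefamulin 3 and 8 genes passed without tiamulin 2. Tiamulin lowered 5 of the 12, which were Slco1a1 (-0.90), Afp (-0.81), Alb (-0.50), Apob (-0.39) and the transferrin receptor gene Tfrc (-0.26). All 5 were also lower under tiamulin than under lefamulin, while the median of the 12 genes in that comparison was 0.11. Afp, the fetal albumin relative, held that call when any library was left out (log2(fold change) -0.68, adjusted p = 1.41e-05). Between 1 and 4 of the 12 genes passed between the drugs when a library was left out. Against control, 9 of the 12 passed under tiamulin without tiamulin 2, counted in either direction. Of all tested genes, 6.00% were lower under lefamulin and 7.34% under tiamulin, and 2.05% were lower under tiamulin than under lefamulin.

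Of 35 C/EBP targets 18 were tested, and both drugs raised 6 and lowered 5, with a median of 0.02 and -0.05. Over all tested genes, lefamulin raised 7.09% and lowered 6.00%, and tiamulin raised 9.08% and lowered 7.34%. Ddit3 and Trib3, described above, belong to this list too, and Gadd45a, a growth arrest gene, rose by 1.35 under tiamulin (adjusted p = 1.24e-06). The acute phase genes Hp (haptoglobin) and Orm2 (orosomucoid) went in opposite directions at low counts. Hp had 17 to 24 counts in controls, 7 to 8 under lefamulin (-1.39, adjusted p = 0.0213) and 8 to 10 under tiamulin (-1.18, adjusted p = 0.0348). Orm2 had 4 to 7 in controls and 13 to 20 under lefamulin (1.58, adjusted p = 0.0281). Hp lost its lefamulin call without control 1, control 3 or any lefamulin library (adjusted p up to 0.0903) and its tiamulin call without any control or tiamulin library (up to 0.125), and Orm2 lost its call without any control or lefamulin library (up to 0.121). Between the drugs, Lpin1, a phosphatidate phosphatase, was higher under tiamulin (0.57, adjusted p = 0.00107), a call that held when any library was left out, and 1 to 7 of the 18 genes passed in those fits against 4 with all libraries. Under lefamulin, 5 of the 18 passed without control 3 or lefamulin 2.

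Of 28 FXR targets and bile acid genes 15 were tested. Lefamulin raised 3 and lowered 0, where it raised 7.09% and lowered 6.00% of all tested genes. Tiamulin raised 4 and lowered 3, where it raised 9.08% and lowered 7.34% of all tested genes. The genes raised by lefamulin were the transporters Abcc2 (0.21, adjusted p = 0.00864) and Abcc3 (0.23, adjusted p = 0.0471) and the FGF co-receptor Klb (1.48, adjusted p = 0.0499). Klb had 5 to 9 counts in controls, 17 to 20 under lefamulin and 1 to 8 under tiamulin. Abcc3 lost its call in 7 of the 9 fits that left out a library (adjusted p up to 0.206) and Klb in 8 (up to 0.152). Of the 15 genes, 0 passed without lefamulin 3 and 9 without tiamulin 2. Under tiamulin the bile salt export pump Abcb11, a direct FXR target, rose from 3 to 8 counts to 13 to 28 (1.94, adjusted p = 0.0141), a call lost without control 1, control 3 or tiamulin 2 (adjusted p up to 0.0748). Tiamulin lowered the uptake carrier Slco1a1 (-0.90, adjusted p = 0.00572), the FGF receptor Fgfr4 (-0.67, adjusted p = 0.00147) and Cyp7b1, an enzyme of the alternative bile acid pathway (-0.67, adjusted p = 0.0228). Slco1a1 and Fgfr4 kept their calls when any library was left out, and Cyp7b1 lost its call without control 2, control 3 or tiamulin 3 (up to 0.0903). Between the drugs 1 gene was higher and 3 were lower under tiamulin, against 2.85% and 2.05% of all tested genes. When a library was left out, 0 to 5 passed.

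The protein-coding genes closest in pattern to the members that passed were taken by the root mean square difference in log2 CPM over the 9 libraries, after centring each gene. For Onecut1 they were Dnah6 (0.06), Jak3 (0.09) and Plxnb1 (0.10), against an SD of Onecut1 itself of 0.40. For Cebpa they included Hmgn2-ps (0.09), which carries a pseudogene symbol and may share reads with Hmgn2, and Fam43a (0.12), against an SD of 0.38. For Hnf4a they were Sh3d19, Drosha and Abcc5, all at 0.03 against an SD of 0.11, and for Nr1h4 Kctd11 (0.06), Rgs16 (0.09) and St6gal1 (0.09) against 0.22. None of these genes was a member of the lists used here.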

How the data were processed

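RNA-seq of 9 Hepa1-6 libraries was analysed. The authors deposited raw read counts per gene and FPKM values, which divide counts by gene length and library size. The submitters' processing notes list CASAVA 1.8, fastp, HISAT2 2.0.5, featureCounts 1.5.0-p3, DESeq2 1.20.0 and the build mm10. Counts made without regard to strand cannot tell apart the reads of genes that overlap on opposite strands. Levels were compared between genes only as FPKM. Library totals were 15568887 to 18008105 counts, so genes with few counts carry more counting error.

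Counts were filtered with filterByExpr, scaled by TMM and fitted in edgeR 4.0.16 (R 4.3.3) with group as the only term over all 9 libraries, followed by the quasi-likelihood test with robust dispersion and Benjamini-Hochberg adjustment over 14510 genes. The paper states thresholds but no model. The alternatives were DESeq2 1.42.0, its size factors, no filter, at least 10 counts in every library, the 2 groups alone, a block for the replicate number, limma 3.58.1 on log2(FPKM + 1) and log2(FPKM + 0.1) where FPKM exceeded 1 in 3 or more libraries, each library left out, offsets for GC content and length (GC known for 14242 genes, from GENCODE M21 transcripts), and, added after seeing the data, control 2 and tiamulin 2 left out together.

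The 8 genes and all lists were chosen with earlier results of these data known. Named genes were the 8, Rxra, genes overlapping the 8, and marker genes. Also named were up to 4 genes per list and comparison, by largest absolute change among those past an adjusted p of 0.05. For each of the 8 that passed, the 3 tested protein-coding genes nearest in pattern were named. The correlations of library deviations, with GC content and between libraries, used genes with a mean CPM of at least 5. Promoter sequences were matched by symbol for all 8. Some genes that the rule would name are not reported here.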

Additional observations from a re-analysis of the deposited data

How the results depend on the processing

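The numbers of the 8 genes that passed were 4 (lefamulin), 2 (tiamulin) and 0 (tiamulin against lefamulin). The deviations of same-numbered libraries correlated at -0.47 to 0.05, and 1 of 9 libraries correlated best with its own number. As these deviations also followed GC content, the values cannot decide whether the replicate numbers pair the libraries. With the number as a block, 2 of the 8 passed under lefamulin, where Hnf4a had an adjusted p of 0.0791 and Nr1h4 of 0.0764, and 2 under tiamulin (8.99% and 12.5% of all genes). Leaving out single libraries gave 2 to 6 genes under lefamulin and 2 to 5 under tiamulin, where 5 came without tiamulin 2, and 0 throughout for the drugs against each other. Offsets for GC content and length gave 2 genes for tiamulin against lefamulin (Nr1h4 and Foxa2), where 13.2% of all genes passed, and 1 together with the block (10.9%). Without control 2 and tiamulin 2 together, 4 genes passed under tiamulin (25.1% of all genes) and 1 between the drugs (11.7%). Hnf4a and Nr1h4 each passed under lefamulin in 11 of 20 alternatives, Foxa2 in 8 and Foxa3 in 7. The causes were not tested.

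The sign turned in these cases, none of which passed the test. Under lefamulin it was Cebpb without control 1 (0.00259). Under tiamulin it was Cebpb without control 2 (-0.148), without tiamulin 2 (-0.130) and without both (-0.367), Nr1h4 without control 1 (-0.00363), control 3 (-0.0824) or tiamulin 3 (-0.0331), and, without tiamulin 1, Hnf4a (0.00299), Foxa2 (0.00434) and Rxra (0.0141). Between the drugs it was Rxra without tiamulin 2 (-0.0609), with GC offsets (-0.0188), with GC offsets and the block (-0.0206) and without control 2 and tiamulin 2 (-0.0607). The other ends of the ranges over single libraries left out were -0.460 for Cebpb under lefamulin, and, under tiamulin, 0.316 for Cebpb, 0.105 for Nr1h4, and, all 3 without tiamulin 2 and with an adjusted p below 0.05, -0.118 for Hnf4a, -0.235 for Foxa2 and -0.230 for Rxra. Between the drugs it was 0.183 for Rxra. Among the fold changes of the 8 genes under alternatives, 428 kept their direction and side of the threshold, 25 passed only there, 18 no longer passed and 9 turned. The 24 mean levels moved by less than 1 SD with TMM CPM per kilobase. Over all genes, 1900, 2383 and 711 passed in the 3 comparisons, and 993 to 3854, 1462 to 3895 and 204 to 1912 across alternatives. Counting error is largest for Foxa1, at 104 to 144 counts, among the 8 genes, and for target genes with under 30 counts.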
